A study of Homo sapiens with 4 samples.

Results

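The cytosolic ribosomal protein genes encode the proteins of the ribosome that translates mRNA in the cytosol. They were examined for Flag-FLI1 occupancy at their promoters. The genes were chosen by name, as protein-coding genes of GENCODE 44 on chromosomes 1 to 22 and X whose symbol is that of a protein of the large (*RPL*) or small (*RPS*) subunit, together with *RPLP0*, *RPLP1*, *RPLP2* and *RPSA*. This gave 84 of 19970 protein-coding genes: 43 of the large subunit, 31 of the small subunit including *RPSA*, the 3 genes of the ribosomal stalk and 7 paralogs (*RPL3L*, *RPL7L1*, *RPL10L*, *RPL22L1*, *RPL26L1*, *RPL39L* and *RPS27L*). They lay on 21 chromosomes, with 12 of them on chromosome 19 and 4 on chromosome X, and each had a MANE Select transcript, the agreed reference transcript of a gene, whose start is called its TSS (transcription start site) here. The chosen symbols are those of genuine ribosomal proteins or their close copies, but *RPL7L1* acts in ribosome assembly, and genes of cytosolic ribosomal proteins with names outside the rule, *FAU* and *RPL36AL* among them, are given apart.

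The libraries came from HK1, an established nasopharyngeal carcinoma cell line. Both groups overexpressed Flag-tagged FLI1, a transcription factor of the ETS family, and an anti-Flag antibody was used to pull down the chromatin. The control group received PBS and the other group received IFN-γ for 24 h, with 1 library per group. There were thus no replicates, the effect of the treatment was not tested, and occupancy of FLI1 at its native level was not measured. The 2 input libraries were not analysed here, and peak lists hold no expression values against which the cell type could be checked. There were 30819 peaks in the control list, at a median summit pileup of 16 fragments, and 39654 in the IFN-γ list, at a median of 22 fragments. The lowest background in each list gave a relative depth of 1.46 in favor of the IFN-γ library. The lists ended at q-values of 0.0499 and 0.0481, so a promoter without a listed peak had no signal past about that limit, which is not the same as unbound.

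As background, ribosomal proteins are needed in near-equal amounts, and their genes, though scattered over the genome, are among the most actively transcribed in dividing cells. Their promoters are short, usually lack a canonical TATA box, and start transcription at a C within a run of pyrimidines. That run becomes the terminal oligopyrimidine tract of the mRNA, through which mTOR signaling controls its translation. ETS proteins bind DNA around the letters GGAA, and GABP, another ETS protein, is a known regulator of ribosomal protein promoters.

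Of the 84 promoters, taken from 250 bases before to 50 after the TSS, 17 (20.2%) held an ETS octamer, CAGGAAGT or CCGGAAGT on either strand, against 8.96% of all protein-coding genes. The shorter ETS core CCGGAA, which lies within the second octamer, was found in 48 (57.1%) against 22.8%. Of the 18 octamers, 13 lay between 100 bases before and 50 after the TSS (72.2%, against 75.8% over all genes), and their median position, counted to the first G of GGAA, was 51 bases before it. The following 6 promoter stretches, from 80 bases before the TSS to the first 20 bases of the transcript on GRCh38, each written along the gene, are shown because their octamers sat at nearly the same place. They were chosen after their values were seen, and capitals mark the octamer, which reads as ACTTCCGG or ACTTCCTG where it lies on the opposite strand.
*RPL32*, chr3:12841546-12841645, minus strand: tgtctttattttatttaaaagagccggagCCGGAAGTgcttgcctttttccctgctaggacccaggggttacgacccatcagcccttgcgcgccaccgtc
*RPS25*, chr11:119018324-119018423, minus strand: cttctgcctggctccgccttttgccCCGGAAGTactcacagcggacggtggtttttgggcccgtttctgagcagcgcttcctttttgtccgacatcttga
*RPL37*, chr5:40835203-40835302, minus strand: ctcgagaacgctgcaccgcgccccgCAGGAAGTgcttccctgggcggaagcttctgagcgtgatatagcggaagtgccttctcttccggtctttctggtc
*RPL34*, chr4:108620496-108620595, plus strand: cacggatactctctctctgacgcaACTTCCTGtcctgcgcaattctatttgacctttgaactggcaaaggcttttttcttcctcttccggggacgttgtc
*RPS13*, chr11:17077648-17077747, minus strand: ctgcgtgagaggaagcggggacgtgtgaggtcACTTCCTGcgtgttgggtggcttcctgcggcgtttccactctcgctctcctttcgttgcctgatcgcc
*RPS14*, chr5:150449720-150449819, minus strand: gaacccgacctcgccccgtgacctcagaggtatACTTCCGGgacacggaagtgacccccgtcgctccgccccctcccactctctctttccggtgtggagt
The octamers lay 49 bases before the TSS in *RPL32*, 53 in *RPS25* and *RPL37*, 51 in *RPL34*, 43 in *RPS13* and 42 in *RPS14*. They read along the gene in *RPL32*, *RPS25* and *RPL37* and against it in the other three. *RPS25* held another octamer 127 bases before its TSS, outside the stretch shown.

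Several of the strongest peaks lay on promoters without an octamer in the same stretch, and 3 of these are shown for contrast. Capitals mark the core of 6 letters where there is one, 6 bases after the TSS in *RPS27* and 71 bases before it in *RPS26*.
*RPS27*, chr1:153990682-153990781, plus strand: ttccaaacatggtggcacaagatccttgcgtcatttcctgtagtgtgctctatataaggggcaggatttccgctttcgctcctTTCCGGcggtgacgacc
*RPS26*, chr12:56041838-56041937, plus strand: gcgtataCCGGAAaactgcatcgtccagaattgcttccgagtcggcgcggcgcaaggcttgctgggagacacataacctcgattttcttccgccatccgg
*RPL4*, chr15:66504836-66504935, minus strand: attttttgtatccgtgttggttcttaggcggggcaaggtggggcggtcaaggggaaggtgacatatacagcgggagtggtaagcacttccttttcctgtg
Neither the octamer nor the core was found in the stretch of *RPL4*, and absence of these letters says nothing about which protein was bound there. The promoters of the paralogs *RPL7L1* and *RPS27L* are shown because these genes were among the 3 with the highest values of the ratio of IFN-γ to control signal, and both had an octamer, 14 and 17 bases before the TSS.
*RPL7L1*, chr6:42879536-42879635, plus strand: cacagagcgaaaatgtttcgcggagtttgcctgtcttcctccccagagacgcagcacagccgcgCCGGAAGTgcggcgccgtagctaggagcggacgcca
*RPS27L*, chr15:63157458-63157557, minus strand: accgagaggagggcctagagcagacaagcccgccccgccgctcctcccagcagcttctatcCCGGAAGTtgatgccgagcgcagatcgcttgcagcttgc

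FLI1 peaks were found at nearly every ribosomal protein promoter in both libraries. A peak was assigned to a gene when it overlapped the 3 kb either side of any of its annotated TSSs. In the control library 82 of the 84 genes (97.6%) had such a promoter peak, against 62.1% of all protein-coding genes. In the IFN-γ library 80 genes (95.2%) had one, against 59.9%, and 79 genes (94.0%) had one in both libraries, against 56.2%. Ribosomal protein genes had more annotated TSSs than other genes, with a median of 8 against 5, which widens the window. Within 500 bp of the single MANE TSS, 81 of the 84 genes had a peak in the control library, against 53.5% of all genes, and 79 in the IFN-γ library, against 48.5%. The 82 and 80 strongest promoter peaks were all distinct, and no promoter peak was shared by a pair of ribosomal protein genes.

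The genes that lacked a promoter peak in at least 1 library were *RPL5*, *RPL14*, *RPS9*, *RPS15A* and *RPL10L*. *RPL10L*, a retrogene copy of *RPL10* known for its role in the testis, had none in either library. *RPL5*, which with *RPL11* and the 5S rRNA binds the p53 regulator MDM2, had a control peak with a fold enrichment of 7.10 and a pileup of 18 fragments, and no IFN-γ peak. *RPL14*, of the large subunit, had a control peak alone, with a fold enrichment of 4.49 and a pileup of 11 fragments. *RPS9*, of the small subunit, had a control peak alone, with a fold enrichment of 4.87 and a pileup of 9 fragments. *RPS15A*, also of the small subunit, had an IFN-γ peak alone, with a fold enrichment of 6.54 and a pileup of 20 fragments. These 4 peaks, found in 1 library each, rested on few fragments, from 9 to 20, under the medians of 44.5 and 61.0 over the ribosomal protein genes.

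The median peak was also stronger than that of all genes. Each gene was described by its promoter peak with the highest −log10 p, and fold enrichment is the pileup plus 1 at the summit over the local background plus 1. The median fold enrichment was 16.5 in control cells and 16.3 in IFN-γ-treated cells, against 10.5 and 9.12 over all protein-coding genes with a promoter peak. The median pileup was 44.5 fragments in the control library, against 26.0 over all genes, and 61.0 in the IFN-γ library, against 33.0. The background beneath the summits differed less, with medians of 1.53 against 1.36 in the control library and 3.17 against 2.71 in the IFN-γ library. In the control library 43 of the 82 peaks (52.4%) were in the top 10% of the whole list by −log10 p, against 24.8% of all genes with a promoter peak. In the IFN-γ library 44 of 80 (55.0%) were, against 23.0%, and 39 genes were in the top 10% of both lists. The count for both lists was not made over all genes. The curves of peak rank show this over the whole range.

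**Figure D1:**
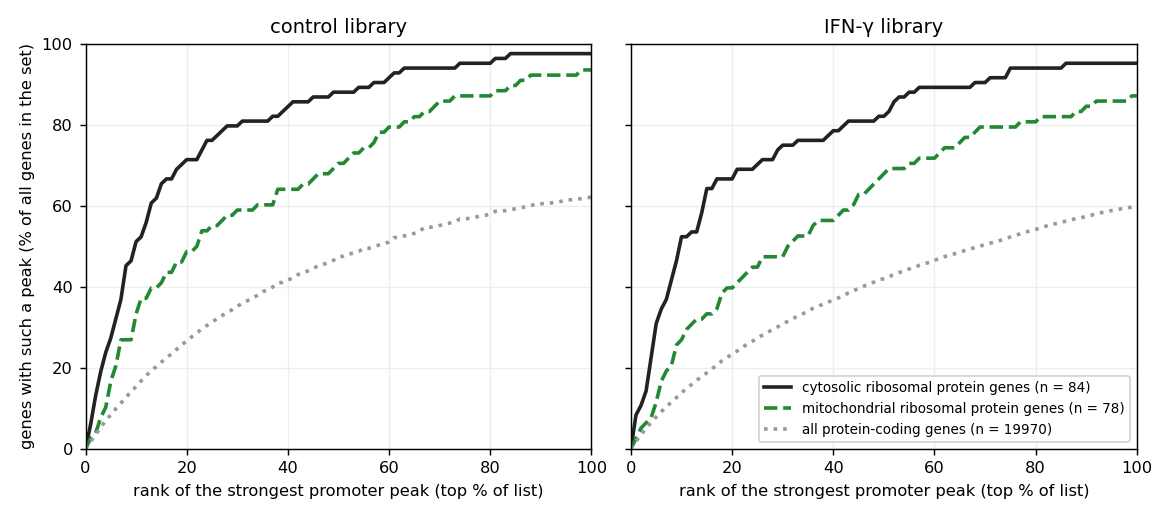
Cumulative share of genes (vertical axis, % of all genes in the set) whose strongest promoter peak lies within the top percent of its peak list given on the horizontal axis, for 84 cytosolic ribosomal protein genes, 78 mitochondrial ribosomal protein genes and all 19970 protein-coding genes. The curve of the cytosolic genes lies above both other curves in each library and ends at 97.6% in control cells and 95.2% in IFN-γ-treated cells.

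Fold enrichment among the genes ran from 4.49 to 51.2 in control cells and from 3.86 to 70.4 in IFN-γ-treated cells. Large and small subunit genes had similar medians, 16.3 and 19.5 in control cells and 17.2 and 16.3 in IFN-γ-treated cells. The 6 paralogs with a peak were lower, with medians of 14.0 and 12.0, and 0 and 1 of them were in the top 10%. The plot of fold enrichment by gene shows the values of both libraries.

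**Figure D2:**
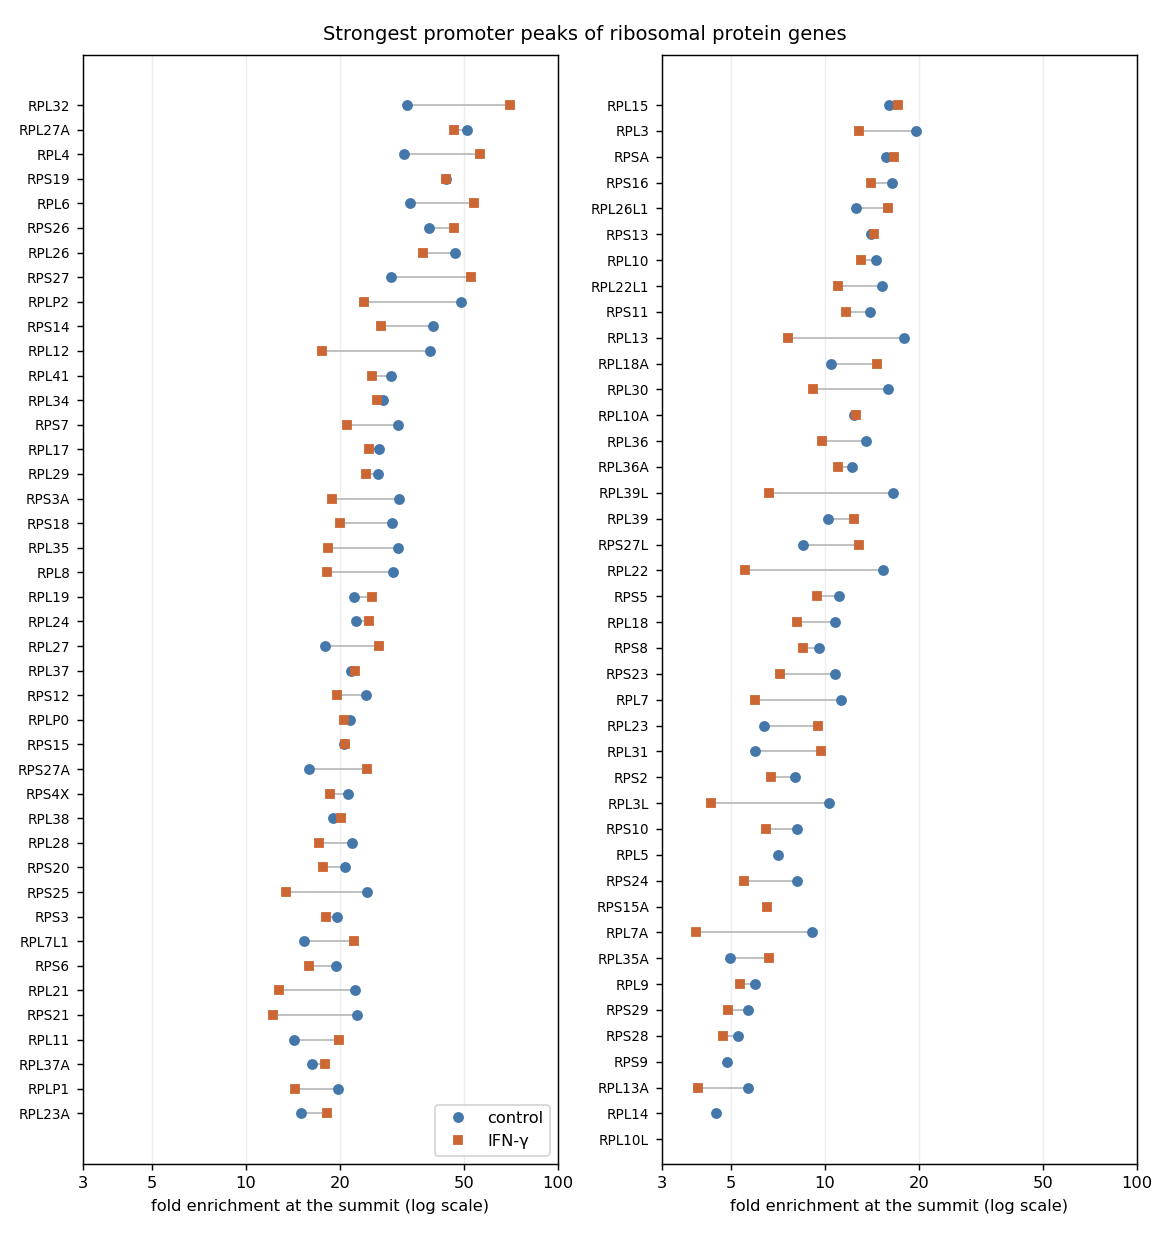
Fold enrichment at the summit of the strongest promoter peak (horizontal axis, log scale) for 83 of the 84 genes in the control library (circles) and the IFN-γ library (squares), ordered by the mean of the available values. The values run from 3.86 to 70.4, and genes with 1 mark or none had no peak in the other or in either library.

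By mean rank over both lists the strongest peaks were those of *RPL27A*, *RPS26*, *RPL32*, *RPS27*, *RPS19* and *RPL6*. *RPL27A*, of the large subunit, had a fold enrichment of 51.2 with 153 fragments in the control library and 46.6 with 260 fragments in the IFN-γ library. This peak, whose summit lay 6216 bp downstream of the MANE TSS in the control library, was near another annotated TSS of the gene, and at the MANE TSS *RPL27A* had a separate peak with fold enrichments of 19.2 and 30.1. *RPS26*, whose protein lies at the mRNA exit channel, had values of 38.6 and 46.4, with summits 18 and 24 bp after the TSS. *RPL32*, of the large subunit, had 32.9 with 100 fragments in the control library and 70.4 with 246 fragments in the IFN-γ library, the highest fold enrichment among the 84 genes there. Its summits lay 51 and 59 bp before the TSS, beside the octamer at 49 bases in the stretch printed above. *RPS27*, a zinc-finger protein of the small subunit, had 29.3 and 52.7, with summits 17 and 21 bp before the TSS. *RPS19*, the first gene linked to Diamond-Blackfan anemia, had 43.8 in each library, at summits 485 and 465 bp before its TSS. *RPL6*, of the large subunit, had 33.6 and 53.8, but the control value was that of a peak 9274 bp upstream, and at its own TSS the values were 28.5 and 53.8.

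The weakest of the peaks present in both libraries were those of *RPS28*, *RPL13A*, *RPS29*, *RPL3L* and *RPL7A*. *RPS28*, a small protein of the small subunit, had fold enrichments of 5.25 and 4.73. *RPL13A*, which leaves the ribosome after IFN-γ stimulation to silence inflammatory mRNAs in myeloid cells, had 5.68 with 18 fragments and 3.93 with 21 fragments. *RPS29*, another small subunit gene linked to Diamond-Blackfan anemia, had 5.65 and 4.88. *RPL7A*, of the large subunit, had 9.11 and 3.86. *RPL3L*, the paralog that replaces *RPL3* in heart and skeletal muscle, had 10.3 and 4.33, and had no peak within 500 bp of its TSS in either library. In all, 8 of 82 control peaks and 11 of 80 IFN-γ peaks of the ribosomal protein genes fell in the lower 50% of their lists (9.76% and 13.8%), against 23.7% and 29.9% of all genes with a promoter peak, and 3 genes did so in both. That last count was not made over all genes.

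The stalk proteins *RPLP0*, *RPLP1* and *RPLP2* recruit the elongation factors to the ribosome. *RPLP2* had the strongest peak of the 3, with a fold enrichment of 48.8 and 114 fragments in control cells and 24 and 108 fragments in IFN-γ-treated cells. Its summits lay 430 and 436 bp before the TSS, nearest to the TSS of the divergent gene *PIDD1*. *RPLP1* had 19.7 and 14.4, with summits 315 and 275 bp after the TSS. *RPLP0* had 21.5 and 20.7 at a peak 6397 and 6376 bp downstream, nearest to the TSS of *GCN1*, and 3.33 and 3.82 at its own TSS. *RPSA*, known also as the laminin receptor, had 15.7 and 16.7 with summits 13 and 18 bp after the TSS. Of the 3 stalk genes, 0 had a summit within 100 bp of the MANE TSS in either library.

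Other genes with roles in signaling or disease had intermediate or strong peaks. *RPL11*, the partner of *RPL5* at MDM2, had 14.3 and 19.9, while *RPL5* had no peak in the IFN-γ list. *RPS6*, the substrate of the S6 kinases downstream of mTOR, had 19.5 and 15.9 with summits 53 and 55 bp before the TSS. *RPS14*, the gene lost in the 5q− syndrome, had 39.8 with 90 fragments and 27.1 with 170 fragments, with summits 24 and 41 bp before the TSS. *RPS27A*, which is translated as a fusion with ubiquitin, had 15.9 and 24.4, at summits 494 and 528 bp before the TSS and nearest to the TSS of the divergent gene *CLHC1*. Among the paralogs, *RPL22L1* had 15.3 and 11.0, *RPL26L1* 12.6 and 15.9, *RPL39L* 16.5 and 6.61, *RPL7L1* 15.4 and 22.2 and *RPS27L*, a p53 target, 8.48 and 12.9. Of the genes outside the rule, *RPL36AL* had 14.9 and 8.12, and *FAU*, which encodes a small subunit protein fused to a ubiquitin-like protein, had 4.67 and 4.79.

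Summits lay close to the start of transcription. In the control library 48 of 82 strongest peaks (58.5%) had their summit within 100 bp of the MANE TSS, against 32.6% of all genes with a promoter peak. In the IFN-γ library 49 of 80 (61.3%) did, against 28.7%. The mitochondrial ribosomal protein genes had shares of 61.6% and 63.2%, so the cytosolic genes did not stand apart from them in this. Next, only peaks of the cytosolic genes that overlapped the 500 bp either side of the MANE TSS were counted. Their median summit lay 15 bp before the TSS in control cells, against 16 bp over all genes. In IFN-γ-treated cells it lay 13 bp before the TSS, against 29 bp. The quartiles in the control library ran from 72 bp before to 34 bp after the TSS, against 135 bp before to 145 bp after it over all genes. Of the summits of the strongest peaks, 48 of 82 and 47 of 80 lay upstream of the MANE TSS. Some of these were still inside the annotated gene, as at *RPL10*. In the MANE transcript, 13 and 15 lay in the first exon and 15 and 12 in the first intron. These places were not counted over all genes. Of the 70 core matches in the promoters, 33 lay in the 80 bases before the TSS (47.1%, against 44% over all genes), as the plot of summit and motif positions shows.

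For 10 genes in control cells and 8 in IFN-γ-treated cells the strongest peak lay beyond 1 kb of the MANE TSS (12.2% and 10.0%), against 23.5% and 30.2% of all genes with a promoter peak. Most of these peaks were nearest to the TSS of another gene. They were *RPL17* (*C18orf32*), *RPL22* (*RNF207*), *RPL26* (*KRBA2*), *RPL36* (*MICOS13*), *RPL3L* (*NDUFB10*), *RPL41* (*ESYT1*) and *RPLP0* (*GCN1*), with *RPL6* (*PTPN11*) and *RPL7* (*RDH10*) in the control library alone, while the peak of *RPL27A* was nearest to another of its own TSSs. In the IFN-γ library the summit at *RPL17* was nearest to an overlapping long non-coding RNA gene. At their own TSSs, *RPL26* had fold enrichments of 24.8 and 18.6, *RPL41* had 14.6 and 11.4, *RPL36* had 9.33 and 3.05, *RPL22* had 5.98 and 5.07 and *RPL17* had 5.84 and 5.13. Over all the ribosomal protein genes, the nearest TSS belonged to the gene itself at 60 of 82 control summits and 62 of 80 IFN-γ summits. Of the strongest peaks, 30 and 29 also lay in the window of another protein-coding gene. These counts were not made over all protein-coding genes, so they do not set the ribosomal protein genes apart. With only the peaks within 500 bp of the MANE TSS, the median fold enrichment was 16.0 in the control library, against 10.2 over all genes, and 14.7 in the IFN-γ library, against 8.40.

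ETS letters were frequent at these summits. Within 100 bp of the summit of the strongest peak, 56 of 82 control summits (68.3%) and 54 of 80 IFN-γ summits (67.5%) held the core CCGGAA, against 40.2% and 41.1% of all genes with a promoter peak. In windows of the same width 1 kb away from the same summits, the shares were 4.88% and 3.75%. The octamer was found at 23 control summits (28.0%) and 22 IFN-γ summits (27.5%), against 16.9% and 19.7%, and in 3.05% and 1.88% of the windows 1 kb away. After the core the letters GT, which complete the octamer, followed most often, at 19 of 82 cores in the control windows (23.2%, against 24.7% over all genes). CCGGAAGA and CCGGAAGC came next with 13 each (15.9%), and CCGGAAGA was not among the 4 commonest words over all genes. Where the octamer was present, it lay a median of 17 bp from the control summit and 19 bp from the IFN-γ summit, against 19 and 18 bp over all genes.

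Other motifs, apart from that of YY1, had lower shares or shares near those of all genes. The GC box GGGCGG, the letters of Sp1 sites, was found at 53.7% and 51.2% of the summits, against 58.8% and 49.4% over all genes. The AP-1 letters TGACTCA and TGAGTCA were found at 0 of 82 and 0 of 80 summits, against 4.47% and 6.41%. The tandem GGAAGGAA, which can share its letters with an octamer, was found at 0 and 1 summits, against 5.36% and 7.51%. AAGATGGCG, the letters of a YY1 site, was found at 3 summits in each library (3.66% and 3.75%, against 2.40% and 2.13% over all genes). In the promoters it was found in 9 of the 84 (10.7%), against 2.84% of all promoters. Among all genes with a promoter peak in both libraries the share was 4.16%. All motifs were searched on both strands.

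The median fold enrichment of genes with an octamer at the summit was 21.7 in the control library (23 genes), against 15.9 in the 59 without, and 22.3 in the IFN-γ library (22 genes), against 13.6 in the 58 without. The ranges overlapped almost fully, from 4.98 to 51.2 with an octamer and from 4.49 to 47.0 without in the control library. Over all protein-coding genes the same medians were 17.5 with and 9.58 without in the control library, and 15.0 and 8.12 in the IFN-γ library. Ribosomal protein genes without an octamer had a median above that of all genes without one in both libraries. A pyrimidine start, a C at the TSS followed by at least 4 pyrimidines, marked 59 of the 84 promoters (70.2%), against 4.59% of all genes. Median fold enrichment with and without it was 17.2 and 16.3 in control cells and 15.1 and 17.7 in IFN-γ-treated cells. Over the core matches, 13 of 70 in the promoters lay in the first 25 bases of the transcript (18.6%, against 13.7% over all genes). Of these 13, 11 read as TTCCGG along the gene, against 506 of 847 over all genes, so that they can share letters with the pyrimidine tract.

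Most of the peaks were common to both libraries at almost the same position. The strongest peaks of 79 of 82 genes in the control library (96.3%) overlapped an IFN-γ peak, against 87.5% of all genes with a promoter peak, and 79 of 80 (98.8%) the other way, against 89.5%. The median distance between the summits of a pair was 23 bp, against 31 bp, and 61 of the 79 pairs (77.2%) lay within 50 bp of each other, against 63.9%. Signal in the 2 libraries was compared as the IFN-γ pileup over the control pileup of overlapping peaks, divided by the relative depth, with an exact binomial 95% interval that covers counting error only. The median ratio was 0.916, with quartiles of 0.788 and 1.12, against a median of 0.834 over all 10852 pairs. Of the 79 ratios, 49 were under 1 (62.0%), against 69.5% of all pairs. The side of 1 on which the median fell depended on the scaling. Dividing by the median of all pairs in place of the relative depth gave a median of 1.10. These pairs start from the strongest control peak. Pairs built from the strongest IFN-γ peak gave 0.919 against 0.874 over all genes, which lay closer together. With only peaks within 500 bp of the MANE TSS, the medians lay further apart, at 0.954 against 0.817.

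The interval of 14 of the 79 genes lay wholly above the median of all pairs, against 11.3% of all pairs, and that of 2 lay wholly below it, against 5.05%. Ribosomal protein genes had larger pileups than most, which narrows their intervals, and so the counts and the background cannot be read as like for like. *RPL7L1* had the highest ratio by value, 2.02 (1.36 to 3.08), from 34 fragments in control cells and 100 in IFN-γ-treated cells. *RPL4*, a large subunit protein that lines the exit tunnel, had 1.86 (1.44 to 2.41), from 85 and 230 fragments. *RPS27L* had 1.81 (1.05 to 3.25), *RPS27A* had 1.80 (1.19 to 2.80) and *RPL32* had 1.69 (1.33 to 2.15). These 5 intervals overlap one another, so the order of their values is within counting error. At the other end, *RPL3L* had 0.358 (0.162 to 0.750), at a peak nearest to the TSS of *NDUFB10*, and *RPL39L*, a paralog known from the testis, had 0.458 (0.254 to 0.809). *RPL7A* had 0.560 (0.304 to 1.02), and *RPS21*, of the small subunit, had 0.624 (0.463 to 0.840).

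The direction at a single gene depended on the measure. Background at the summits had a median of 1.53 in the control library and of 3.17 in the other, further apart than the relative depth. Fold enrichment, which divides by this background plus 1, was lower with IFN-γ at 52 of the 79 pairs, higher at 26 and equal as printed at 1. The median ratio of the fold enrichments was 0.874, against 0.792 over all pairs, and the counts of direction were not made over all pairs. At 9 genes the scaled pileup ratio, taken to 3 significant digits, was over 1 while the fold enrichment was lower, as at *RPS14*, with a ratio of 1.30 (0.999 to 1.69) and fold enrichments of 39.8 and 27.1. At 8 genes the ratio was under 1 and the fold enrichment higher, and at 2 genes, *RPS7* and *RPL30*, the ratio was 1.00 and the fold enrichment lower. Of the 14 genes with an interval above the median of all pairs, 10 also had a higher fold enrichment in the IFN-γ library. With 1 library per condition, differences between the treatments and differences between the libraries cannot be told apart.

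Other genes of the translation machinery were counted in the same way. Of 78 mitochondrial ribosomal protein genes, which encode the separate ribosome of mitochondria, 73 (93.6%) had a promoter peak in control cells and 68 (87.2%) in IFN-γ-treated cells. Their median fold enrichment was 12.7 and 9.35, under that of the cytosolic genes in both libraries, and 26 of 73 and 21 of 68 peaks were in the top 10% of the lists. Among 21 genes of elongation, initiation and nascent-chain factors, 21 and 20 had a promoter peak, with medians of 14.6 and 12.6. Among 36 genes of ribosome assembly, 34 had a promoter peak in each library, with medians of 11.7 and 12.7. Summits within 100 bp of the MANE TSS were found at 45 of 73 and 43 of 68 mitochondrial genes. The counts were 48 of 82 and 49 of 80 for the cytosolic genes. For the assembly genes they were 20 of 34 and 17 of 34, and for the factors 10 of 21 and 9 of 20. The difference between these lists and the cytosolic ribosomal protein genes was not tested.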

How the data were processed

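Flag ChIP-seq was analysed in 2 libraries of HK1 cells, 1 per condition. Per the study's methods and the submitters' processing notes, the authors used Cutadapt 1.18 for trimming, Bowtie2 2.3.4.1 for alignment to GRCh38 and Picard for removal of duplicates, and called peaks with MACS2 2.1.2 at a stated p-value cutoff of 0.01. The deposited lists ended at p-values of 3.05e-04 and 3.46e-04 and at q-values of 0.0499 and 0.0481, and the step that set this limit is not given in the sources used here. Use of the input in calling and the treatment of reads with several alignments are not given in the sources used here. The deposited peak lists give, per the authors, a fold enrichment (a ratio of pileup plus 1 to background plus 1), −log10 of the p-value and q-value, and the summit.

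Whole-number pileups and backgrounds were solved from fold enrichment and −log10 p, which succeeded for 100% of peaks. Genes and TSSs were those of GENCODE 44, and 0 peaks ended beyond their chromosome in the GRCh38 reference, from which sequences were read. Each gene was described by its promoter peak with the highest −log10 p. Ratios between the libraries pair the strongest control peak with the IFN-γ peak overlapping it by at least 1 bp and are divided by 1.46, the ratio of the lowest backgrounds. Genes were named if they lacked a peak in a library, had the 6 highest or 5 lowest mean ranks or the 5 highest or lowest ratios, were stalk genes, paralogs, *RPSA* or genes outside the rule, or were *RPL5*, *RPL11*, *RPS19*, *RPS6*, *RPS14* or *RPS27A*. Other named genes were chosen after their values were seen. Some results under this rule are not reported here. The members and gene lists were chosen with earlier results of these data known. Alternatives were other q-value cutoffs, windows, TSS choices, ways to pick and pair peaks, depth scalings and gene sets. Peaks within 500 bp of the MANE TSS and pairs built from the strongest IFN-γ peak were added after seeing the data. Pileup recovery, overlaps and motif search returned 100% of known answers on simulated data, and ratio intervals covered 96.1%. Software versions were pysam 0.24.0, pandas 2.3.3, matplotlib 3.10.9, scipy 1.17.1 and numpy 2.4.6 under Python 3.11.15.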

Additional observations from a re-analysis of the deposited data

How the results depend on the processing

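No paired analysis was possible because there was a single library per condition, so no replicate could be left out either. Of the summary values recomputed under an alternative, 73 stayed within 1.5 times the reported count or within the spread of the reported value. The other 3 moved. The first of these, given next, was fixed by construction, and the others were counts that could not rise. Scaling the libraries to a median ratio of 1 over all pairs in place of the lowest backgrounds moved the median ratio of the ribosomal protein genes from 0.916 to 1.10, since the median of all pairs was 0.834. Counting peaks on the pseudogenes themselves, without the 3 kb around their starts, lowered the number of ribosomal protein pseudogenes with a peak from 105 to 13 in control cells and from 137 to 17 in IFN-γ-treated cells. The count of ribosomal protein genes with a promoter peak ranged from 79 to 82 in control cells and from 77 to 80 in IFN-γ-treated cells over the alternatives tried. The ratios of the 5 genes with the highest and the 5 with the lowest value stayed within their intervals in all 49 recomputed values. Most of this was fixed in advance. Other ways to pair the peaks returned the same ratio at these genes, and the other scaling multiplied every ratio by the same constant. Only the ratio of fold enrichments was a different measure. At a median summit pileup of 16 and 22 fragments, ratios at the weaker peaks have wide intervals, and the lists hold no signal with a q-value above about 0.05.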

Other observations

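Ribosomal protein mRNAs have left many processed pseudogenes, copies made from mRNA that carry the exons but not the promoter. Of 1580 annotated pseudogenes of the ribosomal protein genes, 105 (6.65%) in control cells and 137 (8.67%) in IFN-γ-treated cells had a peak on the pseudogene or within 3 kb of its start. Over other processed pseudogenes the shares were 4.77% and 6.96%. On the pseudogenes themselves the shares were 0.823% and 1.08%, against 0.974% and 1.50%. Peaks at the promoters of the genes themselves were found in 82 and 80 of 84. Whether reads were shared between genes and copies was not tested.

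Among the 79 genes with overlapping peaks, the paralogs held the highest ratio of IFN-γ to control pileup, that of *RPL7L1* at 2.02. Its interval of 1.36 to 3.08 overlapped those of the next genes. The paralogs also held the 2 lowest ratios, those of *RPL3L* at 0.358 and *RPL39L* at 0.458. The peak of *RPL3L* was nearest to the TSS of *NDUFB10*, and *RPL3L* had no peak within 500 bp of its own TSS. Each of these ratios comes from 1 library per condition, and a difference between paralogs and the other genes was not tested.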
